A study of Sus scrofa with 6 samples.

Results

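Chemokine and inflammatory cytokine genes were examined in the ampulla of the pig (Sus scrofa) oviduct, the segment of the tube where eggs are fertilised. The set was a list of 40 genes chosen by name: interleukins of the IL-1 family with their receptors, TNF with its receptors and relatives, other interleukins, CC and CXC chemokines, and 2 chemokine receptors. Of the 40, 33 had a row in the table of 35670 genes. IL1B, IL1RN, TNFSF10, CXCL13, CXCL16, CX3CL1 and CCL20 had no row under their symbol and were not analysed here. Messenger RNA was counted in 3 libraries from the early luteal stage, when corpora lutea are forming, and in 3 from the stage after ovulation, all of them from female animals and whole ampulla tissue with no treatment named. No breed, age or day of the cycle is given, and nothing says that each library is a different animal. The p-values below therefore cover only how far these 6 libraries scatter, part of which may be technical.

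Chemokines are small secreted proteins that bind receptors on leukocytes and direct their migration. They are named for the spacing of their first cysteines, as CC, CXC or CX3C, while cytokines such as IL-1 and TNF act on receptors that feed into NF-kappaB signalling. In the oviduct they are made by epithelial cells, stromal cells, endothelium and resident leukocytes, in a mucosa that must tolerate sperm and the early embryo. Their genes tend to lie in clusters, and several of these stood together here. On the Sscrofa11.1 assembly, in RefSeq gene spans, CXCL8 (chr8:69932646-69935861), CXCL2 (chr8:70157253-70159145), CXCL9 (chr8:71665541-71670236) and CXCL10 (chr8:71693641-71695948) shared chromosome 8. CCL4 (chr12:39479190-39480511), CCL14 (chr12:39611887-39616050), CCL5 (chr12:39652731-39659121), CCL8 (chr12:40740468-40741970) and CCL2 (chr12:40798109-40800013) shared chromosome 12, and CCL21 (chr10:32093783-32094482) lay 15.9 kb from CCL19 (chr10:32110366-32112529). Reads of neighbouring genes that resemble each other can be split by the counting, so single values of such genes are uncertain.

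Library totals ran from 8342520 to 14785020 counts in early luteal and from 7370723 to 30954222 counts in post-ovulatory libraries. Levels are CPM, the count times 1e6 over a scaled library total, and are not corrected for gene length, so they are compared between libraries and not between genes. A count of 3 corresponded to between 0.193 and 0.406 CPM in early luteal and between 0.0959 and 0.379 CPM in post-ovulatory libraries, a limit of counting error only. OVGP1, the oviduct-specific glycoprotein that marks secretory cells, was counted in every library, at 292 to 2356 CPM in early luteal and 156 to 10688 CPM in post-ovulatory tissue. Early luteal replicate 2 stood apart from the rest, with correlations across genes of 0.802 to 0.865 with the other 5 libraries, against 0.882 to 0.945 among those 5. Each log2 fold change has the early luteal stage on top and is given with its SE, and tests were two-sided.

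No cytokine or chemokine gene passed the test between the stages. Among the 33, 27 had enough counts to be tested, and edgeR's quasi-likelihood test called 0 of them at a Benjamini-Hochberg adjusted p under 0.05, as it did over all 17920 tested genes (0%). At an unadjusted p under 0.05 it counted 2 of the 27, IL1R1 and CCL19, against 7.11% of all genes. Both were lower in early luteal tissue (3.54% of all genes) and 0 were higher (3.57%). By the other tools, DESeq2 called 0 of the 26 to which it gave an adjusted p (1.02% of all genes) and had 5 at an unadjusted p under 0.05 (10.4%). With limma voom the same counts were 0 (0%) and 1 (7.13%). With voom and sample quality weights they were 0 (0.0502%) and 6 (14.2%).

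The early luteal mean lay below the post-ovulatory one for most of the tested cytokine genes, with none past the test. Of the 26 with a mean of at least 1 CPM, 3 (IL1R1, TNFRSF1A and IL15) had a log2 fold change that moved by no more than 1.5 times in any alternative run, and each of the others moved further in at least 1. The log2 fold change was below 0 in 18 of 27, against 51.8% of all tested genes, and its median was -0.32, against -0.026 over all genes. A log2 fold change of 1 or more in either direction was seen in 7 of 27, against 14.2% of all genes. The median was -0.82 when early luteal replicate 1 was left out, -0.10 for early luteal replicate 3 and -0.10 for post-ovulatory replicate 2. In 3 of the 27, IL1R1, TNFRSF1A and CCL14, all early luteal libraries lay below all post-ovulatory ones (9.57% of all genes), and in 0 they all lay above (7.61%). The count of genes without overlap in either direction was 3 of 27 (17.2% of all genes). It was 9 of 28 when early luteal replicate 1 was left out (34.0% of all genes). The count was 4 of 28 for early luteal replicate 2 (28.8%) and 5 of 28 for early luteal replicate 3 (25.6%). For post-ovulatory replicates 1, 2 and 3 it was 5 of 27 (24.3%), 3 of 27 (27.2%) and 8 of 28 (24.4%). In 18 of the 27 the difference of mean log2 CPM was smaller than the SD within a stage, against 62.3% of all genes. These shares describe the genes that passed the filter on low counts and are no test of the set.

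**Figure D1:**
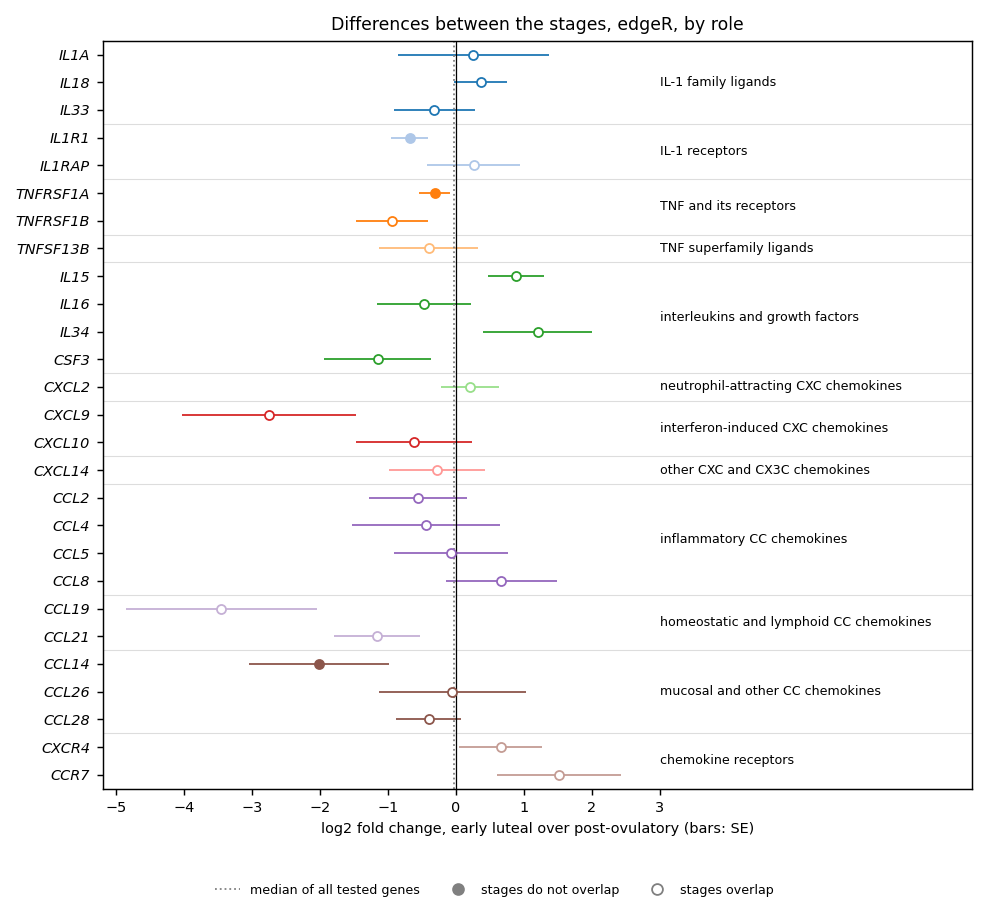
Log2 fold change of each tested gene, early luteal over post-ovulatory, with its SE (bars), grouped by role; filled points are genes whose libraries did not overlap between the stages and the dotted line is the median of all tested genes (-0.026). The values ran from -3.46 for CCL19 to 1.52 for CCR7, and the filled points are IL1R1, TNFRSF1A and CCL14.

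Among the IL-1 family, the signalling receptor stood lower in early luteal tissue and the ligands overlapped. IL1R1 (ENSSSCG00000008162, chr3:52192912-52334734), the receptor that binds both forms of IL-1, had 106, 90.9 and 59.0 CPM in early luteal replicates 1, 2 and 3, against 129.9, 140.2 and 140.4 CPM in post-ovulatory replicates 1, 2 and 3. The highest early luteal library lay below the lowest post-ovulatory one, and the post-ovulatory libraries lay close together, at 137 ± 5.97 CPM (SD, n = 3), against 85.1 ± 23.8 CPM in early luteal tissue. Its log2 fold change was -0.68 ± 0.28 (SE), with an adjusted p of 0.685 in edgeR. IL1RAP, the co-receptor that IL1R1 needs to signal, had 0.966, 3.25 and 1.73 CPM in early luteal and 1.86, 1.77 and 1.28 CPM in post-ovulatory replicates, so that early luteal libraries lay on both sides (0.26 ± 0.68, adjusted p = 0.937, edgeR).

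IL1A, an IL-1 ligand that dying cells can release, had 5.09 and 3.86 CPM in early luteal replicates 1 and 3 and no count in replicate 2, which allows up to 0.406 CPM there. Its post-ovulatory libraries held 1.64, 3.92 and 2.14 CPM. The stages overlapped (log2 fold change 0.25 ± 1.11, adjusted p = 0.967, edgeR), and the difference of mean log2 CPM had the other sign, at -0.85. IL18, which drives interferon gamma production by lymphocytes, had 18.0, 22.2 and 11.6 CPM in early luteal and 10.4, 14.9 and 14.8 CPM in post-ovulatory libraries (0.36 ± 0.39, adjusted p = 0.838, edgeR). IL33, an alarmin held in the nuclei of epithelial, stromal and endothelial cells, had 17.8, 5.55 and 4.39 CPM in early luteal and 8.86, 15.2 and 10.8 CPM in post-ovulatory libraries (-0.32 ± 0.60, adjusted p = 0.910, edgeR). For IL18, 2 early luteal libraries lay above the post-ovulatory range and 1 within it, and for IL33 early luteal replicate 1 was the highest of the 6 and the other 2 were the lowest.

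The TNF receptors were counted well in every library while TNF itself was near the limit of counting. TNF had 8, 0 and 6 counts in early luteal and 3, 5 and 3 counts in post-ovulatory replicates and was not tested. TNFRSF1A (ENSSSCG00000000708, chr5:64319349-64331876), the broadly expressed TNF receptor with a death domain, had 90.6, 82.6 and 74.7 CPM in early luteal and 96.9, 108 and 103 CPM in post-ovulatory libraries. The libraries of a stage lay within a narrow range and the stages did not overlap, but the difference was small, with a log2 fold change of -0.31 ± 0.23 (adjusted p = 0.774, edgeR). TNFRSF1B, the second TNF receptor, found mainly on leukocytes and endothelium, had 59.5, 19.2 and 18.6 CPM in early luteal against 81.0, 72.8 and 33.7 CPM in post-ovulatory libraries. Here early luteal replicate 1 lay above post-ovulatory replicate 3, so the stages overlapped (-0.94 ± 0.53, adjusted p = 0.719, edgeR). Without early luteal replicate 1 the value was -1.70 (adjusted p = 0.309, edgeR). TNFSF13B, the survival factor of B cells also called BAFF, had 14.1, 11.9 and 2.19 CPM in early luteal and 20.6, 10.9 and 5.82 CPM in post-ovulatory libraries, an overlap across nearly the whole range (-0.40 ± 0.73, adjusted p = 0.909, edgeR).

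Of the remaining interleukins and growth factors, IL15 came nearest to a separation in which early luteal tissue was higher. IL15 (ENSSSCG00000009051, chr8:85666963-85740980), which maintains NK cells and memory CD8 T cells, had 26.5, 13.8 and 19.3 CPM in early luteal and 7.52, 10.5 and 14.3 CPM in post-ovulatory replicates. A single crossing, early luteal replicate 2 just under post-ovulatory replicate 3, kept the stages from separating. Early luteal libraries averaged 19.9 ± 6.35 CPM and post-ovulatory ones 10.8 ± 3.39 CPM (SD, n = 3 each), for a log2 fold change of 0.88 ± 0.42 (SE), with an adjusted p of 0.688 in edgeR. Left-out libraries moved that value between 0.63 and 1.15.

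IL34, a ligand of the macrophage receptor CSF1R, had 11.5, 1.76 and 2.86 CPM in early luteal and 2.01, 3.66 and 1.47 CPM in post-ovulatory libraries (1.20 ± 0.81, adjusted p = 0.761, edgeR). The early luteal excess lay in replicate 1, without which the log2 fold change was 0.0029. IL16, a chemoattractant of CD4 T cells, had 5.28, 1.49 and 1.86 CPM in early luteal and 4.47, 5.56 and 2.17 CPM in post-ovulatory libraries (-0.47 ± 0.69, adjusted p = 0.881, edgeR). CSF3, the granulocyte growth factor, had 3.67, 1.22 and 1.13 CPM in early luteal and 1.41, 5.18 and 6.94 CPM in post-ovulatory libraries (-1.15 ± 0.78, adjusted p = 0.761, edgeR). Both genes overlapped between the stages: early luteal replicate 1 lay among the post-ovulatory libraries of IL16 and above the lowest post-ovulatory library of CSF3. Without early luteal replicate 1 the log2 fold change was -1.24 for IL16 and -1.92 for CSF3. For IL16 it was -0.17 without early luteal replicate 2 and -0.11 with voom weights, and for CSF3 it was -0.68 without post-ovulatory replicate 3 and -1.77 with voom weights. IL10, the anti-inflammatory interleukin, had 22, 0 and 9 counts in early luteal and 6, 2 and 3 counts in post-ovulatory libraries. IL17A, the cytokine of Th17 cells, had a single count among the 6 libraries, in post-ovulatory replicate 2. Neither passed the filter on low counts.

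The chemokines that attract neutrophils through CXCR2 differed from each other in how well they were counted. CXCL8, the classical neutrophil chemokine, had 7, 2 and 0 counts in early luteal and 5, 4 and 4 counts in post-ovulatory libraries, close to the limit in all 6, and was not tested. CXCL2 had 17.6, 16.3 and 14.9 CPM in early luteal and 7.45, 16.2 and 18.8 CPM in post-ovulatory libraries (0.20 ± 0.42, adjusted p = 0.922, edgeR). Only post-ovulatory replicate 1 lay outside a range from 14.9 to 18.8 CPM.

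CXCL9 and CXCL10, which interferon gamma induces and which draw activated T and NK cells through CXCR3, spread widely within each stage. CXCL9 (ENSSSCG00000032777) had 4.12, 0.542 and 0.798 CPM in early luteal against 8.41, 29.2 and 0.544 CPM in post-ovulatory libraries. Post-ovulatory replicate 3 lay as low as the lower early luteal libraries. The log2 fold change of CXCL9 was -2.75 ± 1.28 (SE; adjusted p = 0.685, edgeR), with -1.28 when post-ovulatory replicate 2 was left out, -4.16 without early luteal replicate 1, -1.10 with limma voom and -0.145 with voom weights. CXCL10 (ENSSSCG00000032474) had 29.2, 7.72 and 4.45 CPM in early luteal and 27.2, 33.0 and 4.28 CPM in post-ovulatory libraries (-0.62 ± 0.86, adjusted p = 0.874, edgeR). Each stage held both high and low libraries of CXCL10, and its 3 highest libraries, early luteal replicate 1 and post-ovulatory replicates 1 and 2, were also the 3 highest of CXCL9. Its log2 fold change was -1.79 without early luteal replicate 1, -0.20 without post-ovulatory replicate 2 and 0.19 with voom weights.

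CXCL14, a chemokine that epithelia make without stimulation, had 3.54, 5.01 and 1.26 CPM in early luteal and 2.01, 3.28 and 6.43 CPM in post-ovulatory libraries. Its stages overlapped (-0.28 ± 0.71, adjusted p = 0.936, edgeR). The value was -1.46 with voom weights, -0.71 without early luteal replicate 2 and 0.32 without post-ovulatory replicate 3.

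**Figure D2:**
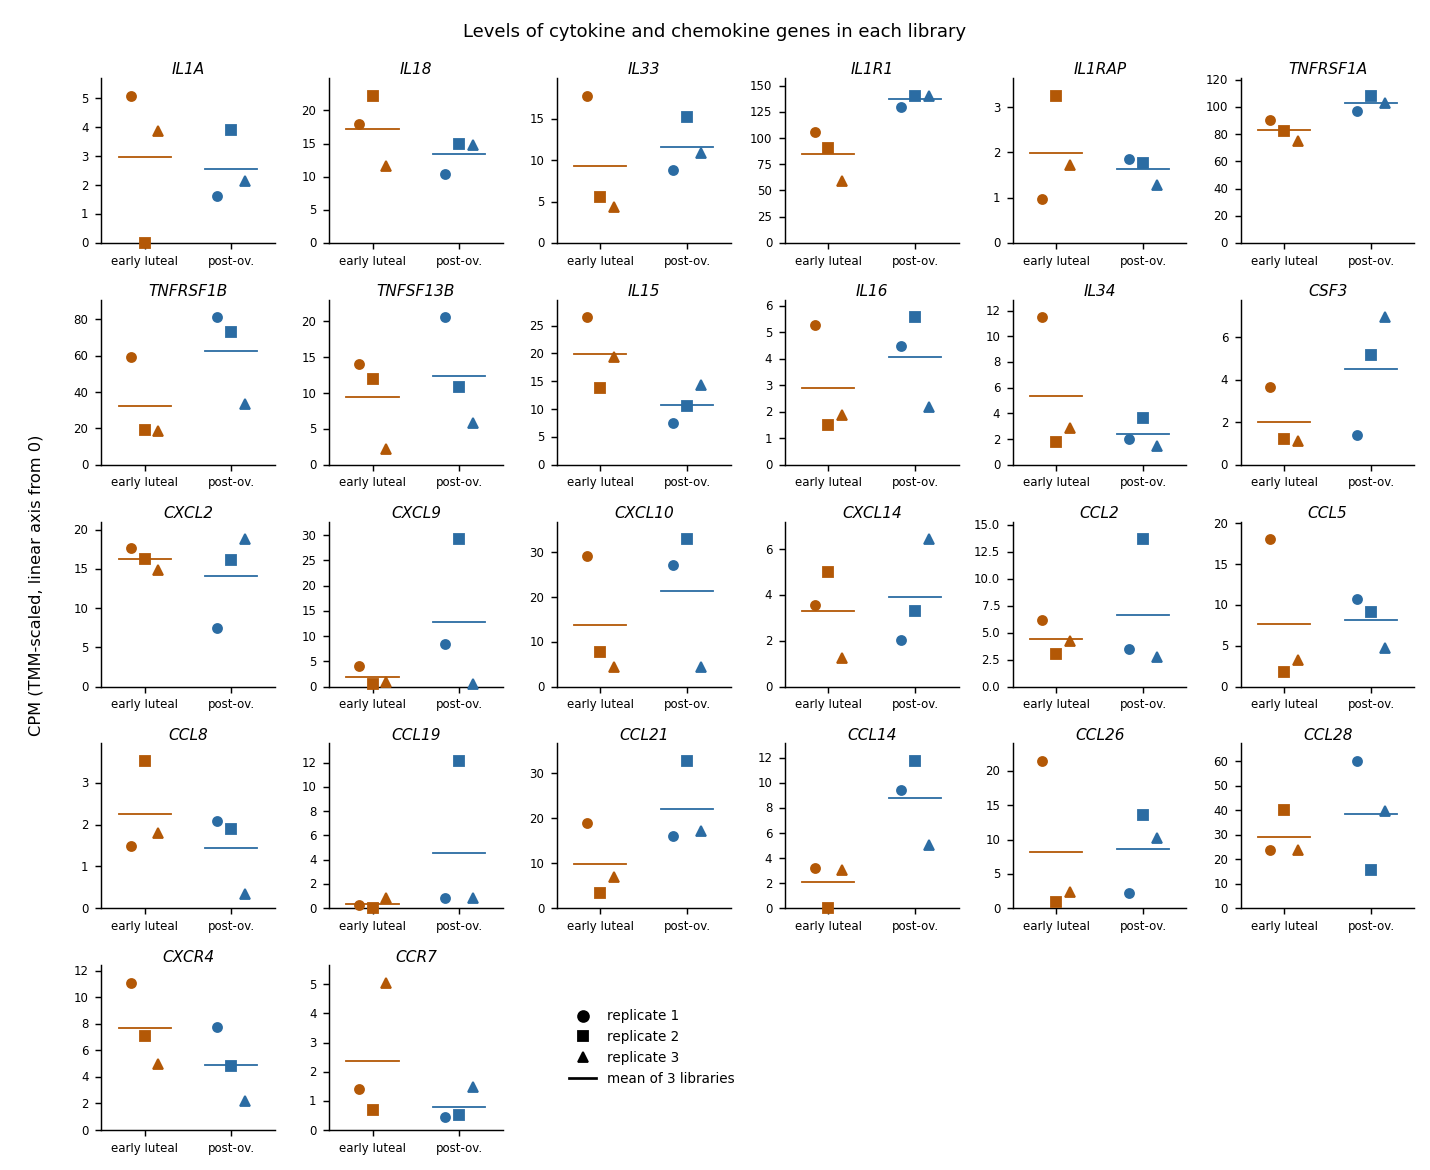
CPM (linear axis from 0) of the 26 tested genes with a mean of at least 1 CPM, early luteal libraries left and post-ovulatory libraries right in each panel; symbols are replicates 1, 2 and 3 and lines are means of 3 libraries. IL1R1, TNFRSF1A and CCL14 show no overlap between the stages, and in CXCL9 and CCL19 a single post-ovulatory library lies far above the rest, at 29.2 and 12.1 CPM.

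Inflammatory CC chemokines, which attract monocytes, T cells and NK cells, overlapped between the stages without exception. CCL2, the main monocyte chemokine, had 6.12, 2.98 and 4.19 CPM in early luteal and 3.50, 13.6 and 2.72 CPM in post-ovulatory libraries (-0.56 ± 0.72, adjusted p = 0.863, edgeR), and its sign turned without post-ovulatory replicate 2, to 0.50. CCL5, a T cell and NK cell product, had 18.0, 1.76 and 3.26 CPM in early luteal and 10.7, 9.09 and 4.70 CPM in post-ovulatory libraries (-0.074 ± 0.83, adjusted p = 0.987, edgeR). In CCL5 early luteal replicate 1 was the highest of all 6 and the other early luteal libraries were the lowest, and the log2 fold change was -1.67 without replicate 1. The sign of so small a difference also depended on the scaling and was 0.041 with library totals alone.

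CCL8, a relative of CCL2 on the same stretch of chromosome 12, had 1.48, 3.52 and 1.80 CPM in early luteal and 2.08, 1.89 and 0.352 CPM in post-ovulatory libraries (0.66 ± 0.82, adjusted p = 0.860, edgeR). Its value was 0.22 when early luteal replicate 2 was left out, 0.19 for post-ovulatory replicate 3 and 1.05 for post-ovulatory replicate 1, and it was 1.22 with limma voom and 1.56 with voom weights. The highest library of CCL8 was early luteal replicate 2, where CCL2, CCL4 and CCL5 were lowest of their stage. CCL4, which attracts monocytes and T cells, had 12, 0 and 18 counts in early luteal and 12, 13 and 12 counts in post-ovulatory libraries, the only tested gene of the set under a mean of 1 CPM (-0.44 ± 1.09, adjusted p = 0.934, edgeR).

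The lymphoid chemokines CCL21 and CCL19, which guide T cells and dendritic cells through their shared receptor CCR7, had lower early luteal means. CCL21 (ENSSSCG00000038162), made by lymphatic endothelium and lymphoid stroma, had 18.9, 3.39 and 6.92 CPM in early luteal and 16.01, 32.7 and 17.2 CPM in post-ovulatory libraries. Early luteal replicate 1 lay within the post-ovulatory range and the other early luteal libraries below it (-1.16 ± 0.63, adjusted p = 0.714, edgeR), and the value was -2.06 without replicate 1 (adjusted p = 0.318, edgeR) and -0.76 without replicate 2. CCL19 (ENSSSCG00000010966) had 4, 0 and 13 counts in early luteal and 11, 96 and 26 counts in post-ovulatory libraries, or 0.258, 0 and 0.864 CPM in early luteal against 0.819, 12.1 and 0.831 CPM in post-ovulatory libraries. The largest log2 fold change of the set, -3.46 ± 1.41 (SE), with an adjusted p of 0.685 in edgeR, thus rested on post-ovulatory replicate 2, and it was -1.06 without that library and -1.24 with voom weights. The 5 other libraries lay under 1 CPM and overlapped. The lymphatic endothelial markers were highest in post-ovulatory replicate 2 as well, with a list score of 0.97 against -0.36 to 0.24 in the others. A list score is the mean over a list of log2 CPM, centred per gene. The blood endothelial markers (1.17) and the fibroblast and stromal markers (1.02) also scored highest in post-ovulatory replicate 2. The part of these cells in the CCL19 value was not tested.

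CCR7 itself had the highest positive log2 fold change of the set. It had 1.42, 0.677 and 5.05 CPM in early luteal and 0.447, 0.505 and 1.47 CPM in post-ovulatory libraries (1.52 ± 0.92, adjusted p = 0.736, edgeR). Most of that difference lay in early luteal replicate 3, without which it was 0.34, and it was 2.32 without post-ovulatory replicate 3. CXCR4, the receptor of CXCL12 on leukocytes and other cells, had 11.08, 7.05 and 4.99 CPM in early luteal and 7.74, 4.80 and 2.17 CPM in post-ovulatory libraries (0.66 ± 0.61, adjusted p = 0.811, edgeR). The order of the libraries within a stage was the same, replicate 1 highest and replicate 3 lowest, with the stages interleaved. For CXCR4 the value was 0.32 when early luteal replicate 1 was left out, 0.29 for post-ovulatory replicate 3 and 1.15 for post-ovulatory replicate 1, and it was 1.18 with voom weights. CCL17 and CCL22, ligands of CCR4 made by dendritic cells, were not tested: CCL17 had 1, 0 and 0 counts in early luteal and 1, 3 and 1 counts in post-ovulatory libraries, and CCL22 had 6, 0 and 3 counts in early luteal and 16, 6 and 5 counts in post-ovulatory libraries.

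CCL14 (ENSSSCG00000034722), a chemokine that in human circulates in plasma and binds CCR1, was the chemokine whose stages did not overlap. It had 50, 0 and 46 counts in early luteal and 127, 93 and 159 counts in post-ovulatory libraries, which is 3.22, 0 and 3.06 CPM in early luteal against 9.46, 11.7 and 5.08 CPM in post-ovulatory libraries. Early luteal libraries averaged 2.09 ± 1.81 CPM and post-ovulatory ones 8.76 ± 3.39 CPM (SD, n = 3 each), and the log2 fold change was -2.02 ± 1.03 (SE; adjusted p = 0.702, edgeR). Early luteal replicate 2, which had none, also had the lowest score of the blood endothelial markers (-1.65, against -0.23 to 1.17). Their summed level there was 572 CPM, the highest of its stage, against 536 and 414 CPM in early luteal replicates 1 and 3. Over all tested genes, 39.4% were lowest in that library, and it had the lowest T and NK cell score too (-1.49). The part of these cells in the CCL14 value was not tested. Without early luteal replicate 2 the log2 fold change of CCL14 was -1.47 (adjusted p = 0.597, edgeR), and with voom weights it was -1.22.

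CCL28, an epithelial chemokine that draws IgA-producing plasma cells to mucosae, had 23.6, 40.2 and 23.9 CPM in early luteal and 60.1, 15.8 and 39.7 CPM in post-ovulatory libraries (-0.40 ± 0.48, adjusted p = 0.857, edgeR). Its post-ovulatory libraries enclosed the early luteal ones, and its lowest library was post-ovulatory replicate 2, the library in which CXCL9, CCL2, CCL19 and CCL21 were highest. The ciliated and secretory epithelial markers had their lowest scores in that library too, -0.49 and -0.67. CCL26, an eosinophil chemokine in human, had 21.4, 0.948 and 2.39 CPM in early luteal and 2.23, 13.6 and 10.2 CPM in post-ovulatory libraries, a spread within each stage that exceeded any difference between them (-0.056 ± 1.08, adjusted p = 0.993, edgeR). Its value was -2.32 without early luteal replicate 1 and 0.013 with library totals alone.

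The clearest pattern in the set was a difference between libraries of the same stage. Of the early luteal libraries, replicate 1 was the highest in 19 of the 27 tested genes (34.2% of all tested genes), replicate 2 in 5 (36.4%) and replicate 3 in 3 (29.4%). The lowest early luteal library was replicate 1 in 3 genes (29%), replicate 2 in 13 (47.6%) and replicate 3 in 11 (23.4%). Of the post-ovulatory libraries, replicate 2 was the highest in 14 of 27 (35.8%), replicate 1 in 7 (36.4%) and replicate 3 in 6 (27.8%). The lowest was replicate 2 in 1 gene (34.3%), replicate 1 in 13 (38.9%) and replicate 3 in 13 (26.7%). Early luteal replicate 1 and post-ovulatory replicate 2 thus stood high in their stages, and in 11 of 27 genes both were the highest, against 13.3% of all genes. That joint count largely follows from the single counts of 19 and 14 genes and is no separate result. Those 11 were IL1A, IL33, TNFRSF1A, IL16, IL34, CXCL9, CXCL10, CCL2, CCL21, CCL14 and CCL26. The median SD of log2 CPM within a stage was 0.95 in the 27 genes and 0.57 over all tested genes, which include better-counted genes. The median difference of mean log2 CPM between the stages, without its sign, was also larger, at 0.73 against 0.44. The spread within a stage was thus not enlarged alone in these genes.

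**Figure D3:**
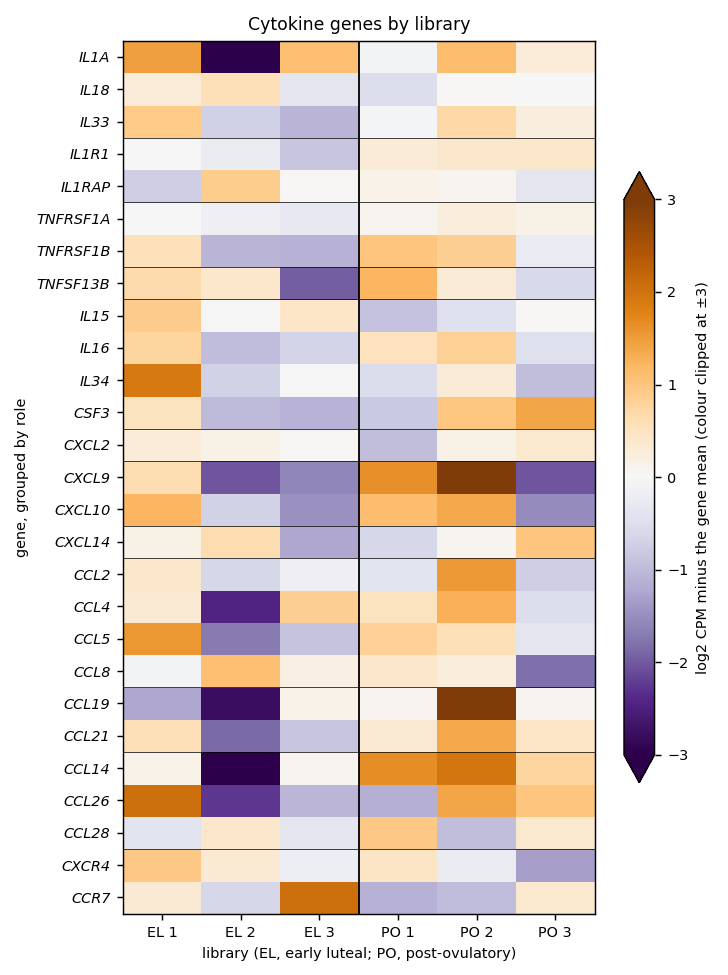
Log2 CPM minus the gene's mean over the 6 libraries for the 27 tested genes (rows, grouped by role) in early luteal (EL) and post-ovulatory (PO) libraries (columns); the colour is clipped at ±3. Early luteal replicate 1 and post-ovulatory replicate 2 are mostly above the mean, and early luteal replicate 2 is below it in CCL14, CCL19, CCL4 and IL1A, each with 0 counts there.

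Markers of immune cells were also highest in early luteal replicate 1 among the early luteal libraries, while the highest post-ovulatory library differed by list. The score of the T and NK cell list (19 tested genes, 15 with a lower early luteal mean) was 1.16, -1.49 and -0.995 in early luteal and 0.49, 1.03 and -0.20 in post-ovulatory replicates 1, 2 and 3, and the score of the cytokine genes was 0.52, -0.88 and -0.38 in early luteal and 0.15, 0.75 and -0.15 in post-ovulatory replicates. Summed levels of the T and NK list ran from 29.1 to 120.4 CPM in early luteal and from 47.1 to 104 CPM in post-ovulatory libraries. For monocytes and macrophages (11 tested, 10 lower) the sum ran from 82.9 to 233 CPM in early luteal and from 112 to 229 CPM in post-ovulatory libraries. For dendritic cells (9 tested, 7 lower) it ran from 35.5 to 139 CPM in early luteal and from 73.1 to 93.7 CPM in post-ovulatory libraries. Their marker CD1D went the other way, at 44.6, 6.91 and 4.72 CPM in early luteal and 1.94, 2.78 and 4.57 CPM in post-ovulatory libraries. The stages did not overlap, but early luteal replicate 3 lay just above post-ovulatory replicate 3. Early luteal replicate 1 lay far above all other libraries. The log2 fold change of CD1D was 2.58 ± 0.88 (adjusted p = 0.674, edgeR). For B and plasma cells (9 tested, 8 lower) the sum ran from 172 to 444 CPM in early luteal and from 253 to 754 CPM in post-ovulatory libraries. Much of that sum came from JCHAIN and XBP1. JCHAIN had 8.91 to 253 CPM in early luteal and 10.4 to 539 CPM in post-ovulatory libraries. XBP1 had 117 to 186 CPM in early luteal and 152 to 204 CPM in post-ovulatory libraries. Early luteal replicate 1 had the highest score of its stage in each of these 4 lists. Among post-ovulatory libraries, replicate 2 scored highest for T and NK cells (1.03) and dendritic cells (0.75). Replicate 1 did so for macrophages (0.69, against 0.66 in replicate 2) and for B and plasma cells (0.92, against 0.58 in replicate 2). In tissue samples fewer cells of a type and less RNA per cell cannot be told apart, and the part of these cells in the cytokine values was not tested.

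Of 12 neutrophil markers 9 had a row and 2 were tested, LTF and CSF3R, both overlapping between the stages. LTF, the secreted iron-binding protein lactoferrin, which epithelia also make, had 119, 58.1 and 71.1 CPM in early luteal and 166, 73.6 and 90.2 CPM in post-ovulatory libraries, while MPO, MMP8 and FCAR had 3 counts or fewer in all libraries together. Of 8 mast cell markers 2 were tested, and they differed in direction. KIT, the receptor of stem cell factor, which other cells carry too, had 177, 55.8 and 68.0 CPM in early luteal and 30.4, 29.3 and 32.3 CPM in post-ovulatory libraries. Its stages did not overlap (1.71 ± 0.44, adjusted p = 0.596 in edgeR and 0.0449 in DESeq2). MS4A2, a subunit of the IgE receptor, had 17.9, 8.54 and 5.72 CPM in early luteal and 12.9, 24.1 and 9.94 CPM in post-ovulatory libraries, and HPGDS had 3 counts or fewer in all.

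Most stromal and blood endothelial markers had lower early luteal means. Fibroblast and stromal markers (9 tested, 8 lower) scored -0.13, -0.58 and -0.90 in early luteal and 0.60, 1.02 and -0.0049 in post-ovulatory replicates, and their sums ran from 1208 to 1360.2 CPM in early luteal and from 1569.6 to 2991 CPM in post-ovulatory libraries, without overlap. Of those 9, 4 had an unadjusted p under 0.05, all lower in early luteal tissue (3.54% of all genes), and 0 an adjusted one in edgeR. Blood endothelial markers (12 tested, 10 lower) had a median log2 fold change of -0.97, and 2 of them had an unadjusted p under 0.05, both lower. Their 2 most abundant markers went the other way: EMCN, a sialomucin of venous endothelium, averaged 306 CPM in early luteal libraries against 211 CPM in post-ovulatory ones, without overlap, and KDR, a VEGF receptor, 90.0 CPM in early luteal libraries against 63.5 CPM in post-ovulatory ones. The summed endothelial levels overlapped, at 414 to 572 CPM in early luteal and 381 to 624 CPM in post-ovulatory libraries. The part of these cells in the chemokine values was not tested.

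Smooth muscle markers had higher early luteal means in 7 of 7 tested genes (median log2 fold change 0.61), with the lowest score in early luteal replicate 1 (-1.73) and the highest in early luteal replicate 3 (1.33). Immediate early genes, which respond to handling of the tissue, had higher early luteal means in 12 of 14 (median 0.95). They likewise scored lower in early luteal replicate 1 (-0.63) than in early luteal replicates 2 and 3 (0.54 and 1.18). In both lists 0 genes passed an adjusted p of 0.05 in edgeR, and their part in the lower cytokine means was not tested.

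**Figure D4:**
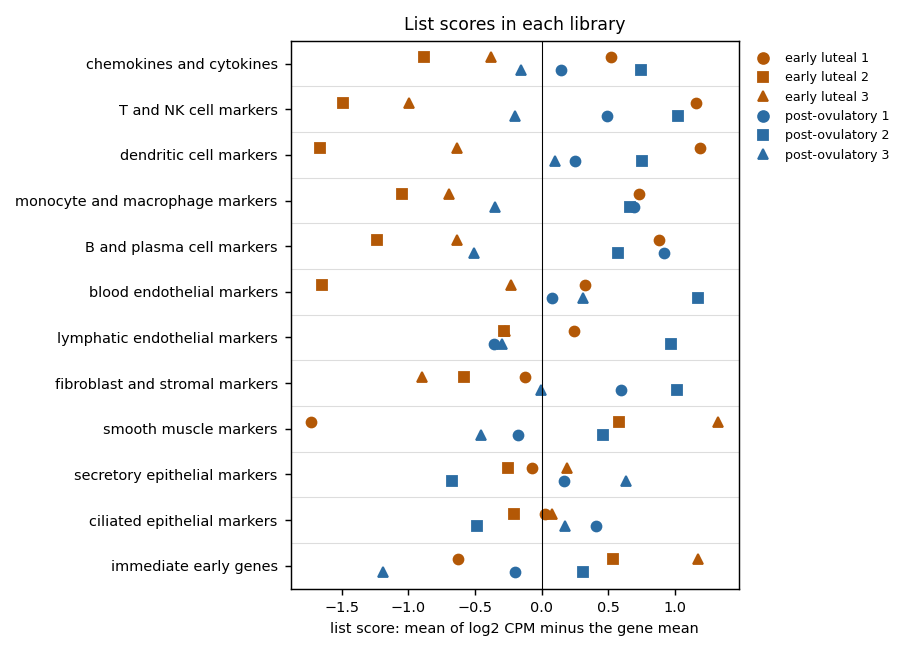
List scores (mean over tested genes of log2 CPM minus the gene's mean) of the 27 cytokine genes, of cell type marker lists and of immediate early genes in each library; orange is early luteal, blue is post-ovulatory, and symbols are replicates. For the cytokine genes early luteal replicate 1 (0.52) and post-ovulatory replicate 2 (0.75) score highest, and they are also the 2 highest for T and NK cell markers (1.16 and 1.03).

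Genes that act with these cytokines were counted from lists of receptors, signalling proteins and targets. Of 97 such genes tested in 8 lists, 0 passed in edgeR (lowest adjusted p = 0.680) and 1, JAK2, had an unadjusted p under 0.05, against 7.11% of all genes. JAK2, a kinase of the interferon gamma receptor, had 28.9, 49.7 and 27.5 CPM in early luteal and 18.5, 20.7 and 17.0 CPM in post-ovulatory libraries, with no overlap (0.91 ± 0.33, adjusted p = 0.680, edgeR), and 0.59 without early luteal replicate 2. The interferon gamma list that holds JAK2 (10 tested, 6 lower) had a median log2 fold change of -0.16.

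In the IL-1 and inflammasome list (13 tested, 10 lower, median -0.34) 2 genes did not overlap between the stages, in opposite directions, a share of the list near that of all genes (17.2%). IRAK4, the kinase that couples IL-1 receptors to their signal, had 24.7, 35.5 and 24.7 CPM in early luteal against 15.6, 18.4 and 19.8 CPM in post-ovulatory libraries (0.65 ± 0.31, adjusted p = 0.692, edgeR). TRAF6, the ubiquitin ligase that acts after it, had 20.1, 23.0 and 17.4 CPM in early luteal against 26.7, 25.9 and 24.0 CPM in post-ovulatory libraries (-0.34 ± 0.29, adjusted p = 0.800, edgeR). The NF-kappaB list (15 tested, 8 lower) had a median of -0.011, and the TNF list (23 tested, 13 lower) one of -0.16. Inflammatory target genes (11 tested, 7 lower) had a median of -0.13, among them PTX3, a soluble pattern recognition protein, with 3.16, 142 and 70.7 CPM in early luteal and 14.5, 9.60 and 21.2 CPM in post-ovulatory libraries (2.24 ± 0.998, adjusted p = 0.685, edgeR). In PTX3 early luteal replicate 1, high in most cytokines, was the lowest of all 6 libraries, and the log2 fold change was 1.27 without early luteal replicate 2, 0.70 with limma voom and 0.68 with voom weights.

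Chemokines outside the set and receptors that were not in it had lower early luteal means for the most part. Of 5 other chemokines tested all had a lower mean (median -0.97), of 11 other chemokine receptors 9 did (median -0.58), and of 9 interleukin and colony factor receptors 7 did (median -0.50). Over the 97 genes of the 8 lists 65 did, against 51.8% of all tested genes. Early luteal replicate 2 had the lowest score of the 6 libraries in each of these lists of chemokines and receptors (-1.97, -1.22 and -1.47). CXCL12, the stromal ligand of CXCR4, had 28.0, 23.6 and 20.01 CPM in early luteal and 35.1, 82.1 and 23.5 CPM in post-ovulatory libraries (-0.97 ± 0.46, adjusted p = 0.691, edgeR). AMCF-II, a pig neutrophil chemokine, had 1.09, 0.813 and 0.399 CPM in early luteal and 0.819, 12.6 and 0.384 CPM in post-ovulatory libraries (-2.55 ± 1.29, adjusted p = 0.701, edgeR). In both genes post-ovulatory replicate 2 was the highest library, as in CXCL9, CCL2, CCL19 and CCL21, and without it the log2 fold changes were -0.30 for CXCL12 and 0.36 for AMCF-II. With voom weights they were -0.53 for CXCL12 and -0.42 for AMCF-II. CXCR6, the receptor of CXCL16, was instead highest in post-ovulatory replicate 1, with 3.54, 0 and 0.465 CPM in early luteal and 15.3, 3.92 and 3.07 CPM in post-ovulatory libraries (-2.41 ± 1.24, adjusted p = 0.704, edgeR). It was -4.73 without early luteal replicate 1 and -1.34 without post-ovulatory replicate 1.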

How the data were processed

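Counts per Ensembl gene of 6 libraries, 3 per stage, were analysed. Per the labels' protocols, total RNA of ampulla tissue was made into stranded mRNA libraries and sequenced with paired reads on a NextSeq2000. The submitters' processing notes name FastQC 0.11.4, Trim Galore, STAR and build Sscrofa11.1. How reads were assigned to genes, and whether by strand, is not given in the sources used here. The deposited table holds whole-number counts that the authors did not normalize. A tab is missing from its header, so columns were matched by position; early luteal replicate 3 is headed by a shortened label that fits no other sample. Symbols came from a table pairing 15623 of the 35670 identifiers with names, and gene spans from RefSeq, by symbol. No sequences of the genes were used here.

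Stages were compared by the quasi-likelihood test of edgeR 4.0.16 in R 4.3.3 with TMM scaling, robust estimates and filterByExpr, adjusted over all 17920 tested genes by the Benjamini-Hochberg method. SEs were derived from log2 fold change and F. List scores and log2 CPM used a prior count of 2. Genes with a mean of at least 1 CPM were given in every library with fold change, SE and adjusted p, lower ones by counts, and the planned unadjusted p-values only as counts; of each pathway list up to 3 genes with the lowest p and the one with the highest CPM could be named, 1 of which is not reported here. The members and lists were chosen with earlier results of these data known. The scripts were tested on simulated data. Alternatives were 2 scalings, 2 filters, DESeq2 1.42.0, limma 3.58.1 voom without and with sample quality weights, the replicate number as a block, and each library left out.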

Additional observations from a re-analysis of the deposited data

How the results depend on the processing

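No cytokine gene passed an adjusted p of 0.05 in any alternative run; the lowest was 0.178 (IL1R1, limma voom with sample quality weights). Over all genes, calls numbered 8 without a filter, 177 with DESeq2, 9 with voom weights and 0 in the other alternatives. Of 26 genes, 14 kept their sign throughout, among them IL1R1, TNFRSF1A, IL15 and CCL14. With library totals alone CCL5 was 0.041 and CCL26 0.013. With limma voom IL1A was -0.47 and CCL2 0.083. With voom weights IL18 was -0.075, CXCL2 -0.075, CXCL10 0.19, CCL2 0.35, MYD88 0.030 and LCN2 0.21, and CXCL9 was -0.145. Leaving out each library gave 14 to 20 of 27 or 28 tested genes with a lower early luteal mean (49.4% to 53.6% of all genes). It gave 3 to 9 without overlap (24.3% to 34.0% of all genes), and medians of -0.82 to -0.10. Log2 fold changes then ran from -0.34 to 0.82 for IL1A, -1.20 to 0.011 for IL33, -0.27 to 0.62 for IL1RAP, -0.80 to 0.16 for TNFSF13B, -0.12 to 0.48 for CXCL2, -0.71 to 0.32 for CXCL14, -0.93 to 0.50 for CCL2, -1.67 to 0.39 for CCL5, -2.32 to 0.47 for CCL26, -0.77 to 0.051 for CCL28, -0.88 to 0.090 for MYD88, -0.53 to 0.32 for NFKBIA, -0.33 to 0.20 for LCN2 and -3.08 to 0.36 for AMCF-II. The cause of these changes of sign was not tested.

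Replicate numbers are shared by the stages, which does not show whether libraries are paired. Deviations correlated across genes at 0.052, -0.082 and 0.13 for libraries of the same number. For different numbers the correlations ran from -0.16 to 0.063. With 3 libraries per stage these values constrain each other and cannot decide on pairing, and no pairing was assumed. With the replicate number as a block 0 genes were called and 19 of 27 cytokine genes had a lower early luteal mean (54.8% of all genes). In that run the median was -0.54 and IL1A was -0.15. TNF, IL10, IL17A, CXCL8, CCL17 and CCL22 entered only the fit without a filter, in which 0 of 33 cytokine genes were called.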
